A study of Rattus norvegicus with 8 samples.

Results

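*Ccdc152*, the selenoprotein P gene *Selenop*, and the 5 glutathione peroxidase genes *Gpx1*, *Gpx3*, *Gpx4*, *Gpx7*, and *Gpx8* were examined in the right Achilles tendon of rats after running. These 7 members of the 32883 genes in the count table were chosen by name, *Ccdc152* because it lies next to *Selenop* in the genome. They were chosen with the contrast of running and control rats in these data already known. That contrast is therefore only described for them, and any test call of a member carries no evidence. All 7 were found in the table, and 7 of 7 were among the 13937 genes that passed a filter on low counts.

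The data are polyadenylated RNA sequencing of the right Achilles tendon of 8 wild-type Sprague-Dawley (SD) rats, male and 8 to 10 weeks old. In 1 group, 4 rats ran uphill on a treadmill for 1 hour and were killed 12 hours post-running (12 h p.r.). In the other, 4 rats kept normal activity in their cages and were killed at the same time (NC). Each rat gave 1 library of 7350509 to 12951397 reads counted on genes.

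Selenoprotein P is made mainly by the liver and carries selenium through the plasma in many selenocysteine residues, and other tissues also express it. Selenocysteine is the catalytic residue of *Gpx1*, *Gpx3*, and *Gpx4*, enzymes that reduce peroxides with glutathione, whereas *Gpx7* and *Gpx8* use cysteine and sit in the endoplasmic reticulum. *Ccdc152* encodes a coiled-coil domain protein of little known function, and RNA of its human counterpart has been reported to hold back the translation of selenoprotein P.

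In the RefSeq gene table of the rat assembly GRCr8, *Selenop* and *Ccdc152* are direct neighbors on opposite strands, and their 3′ ends overlap. The source used for the counts does not state whether counting used the strand, so reads of the shared end cannot be assigned to either gene with certainty. The start regions of both genes are shown because these neighbors differed between the groups by unequal amounts. Each window runs from 250 bases before to 50 bases after an annotated RefSeq start and is written 5′ to 3′ on the strand of the gene. It comes from RefSeq on GRCr8, not from Rnor_6.0, to which the reads were aligned. The bases after the *Ccdc152* start open with ATG, so this start may be that of the coding sequence. Its window may therefore not cover the promoter. Capitals mark matches to searched motifs. The window of *Ccdc152* lies at chr2:54258060-54258359 on the minus strand, and that of the second *Selenop* start at chr2:54225662-54225961 on the plus strand.
Ccdc152: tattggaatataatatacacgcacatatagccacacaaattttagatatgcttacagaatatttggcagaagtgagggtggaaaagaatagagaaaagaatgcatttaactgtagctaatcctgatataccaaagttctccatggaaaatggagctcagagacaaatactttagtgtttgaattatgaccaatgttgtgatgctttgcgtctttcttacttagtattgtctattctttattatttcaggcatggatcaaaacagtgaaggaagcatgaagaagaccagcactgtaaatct
Selenop, second start: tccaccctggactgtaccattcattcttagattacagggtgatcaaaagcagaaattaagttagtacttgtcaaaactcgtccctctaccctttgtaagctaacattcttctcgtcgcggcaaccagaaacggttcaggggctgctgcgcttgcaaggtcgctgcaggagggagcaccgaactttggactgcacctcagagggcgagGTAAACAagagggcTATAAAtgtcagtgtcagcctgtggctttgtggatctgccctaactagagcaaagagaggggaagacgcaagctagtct

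The motifs were searched on both strands, and the share of all 33469 rat promoter windows of this length that hold each is given as background. The core of FoxO sites, GTAAACA, was found in 3.78% of all windows, and the letters TATAAA of the TATA box in 14.2%. The E-box, CACGTG, was found in 6.42%, the AP-1 site, TGANTCA, in 7.33%, and the D-box, TTATGNAA, in 3.66%. In the window of the second *Selenop* start, the FoxO core began 43 bases and the TATA box 29 bases before the start (-43 and -29). The *Ccdc152* window, with 34.3% G and C against 50% in that *Selenop* window, held none of the 5 motifs, and neither did the window of the first *Selenop* start. Because the *Ccdc152* window may not cover its promoter, these values do not compare the promoters of the neighbors.

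Of the 8 libraries, 2 stood apart most in marker genes of other tissues. Summed skeletal muscle markers (7 of 8 genes present) reached 53850 CPM (counts scaled to 1e6 per library) in 12 h p.r. replicate 3, against 1277 to 9482 CPM in the other 7 rats. Summed cartilage and bone markers (6 of 6 genes) were 1223 CPM in NC replicate 3, 467 CPM in 12 h p.r. replicate 1, and 12.4 to 126 CPM in the rest. All 6 tenocyte markers were detected in every rat, and their sum was lowest, 13265 CPM, in 12 h p.r. replicate 3 and 22971 to 42017 CPM in the others. Fold changes of the 7 genes are therefore also given without 12 h p.r. replicate 3 and NC replicate 3.

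*Ccdc152* was lower in every running rat than in every control rat. Its expression was 93.6, 70.9, 78.3, and 88.8 CPM in 12 h p.r. replicates 1 to 4 and 258, 148, 138, and 222 CPM in NC replicates 1 to 4. The groups did not overlap, the running rats lay close together, and the control rats split into a pair near 140 CPM and a pair above 220 CPM. The means were 82.9 ± 10.2 and 191 ± 57.9 CPM (SD, n = 4 each), and the log2 fold change of 12 h p.r. over NC was -1.21 (SE, 0.21), a 2.31-fold ratio of NC over 12 h p.r. Without the 2 libraries that stood apart, it was -1.31 (SE, 0.215). Between 538 and 3217 reads per rat lie behind these values.

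*Selenop* differed far less between the groups. It measured 353, 368, 328, and 333 CPM in the 12 h p.r. rats and 471, 260, 493, and 415 CPM in the NC rats. The NC rats spanned the whole range of the running rats, with NC replicate 2 below all of them and the other 3 above all of them. The means were 345 ± 18.9 and 410 ± 105 CPM (SD, n = 4 each), a log2 fold change of -0.25 (SE, 0.19). It was -0.12 (SE, 0.213) without the 2 libraries that stood apart and -0.15 (SE, 0.197) without NC replicate 3 alone. It was -0.41 (SE, 0.119) without NC replicate 2, the rat lowest in leukocyte and fibroblast markers among the controls. Its values rest on 2124 to 6522 reads per rat.

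**Figure D1:**
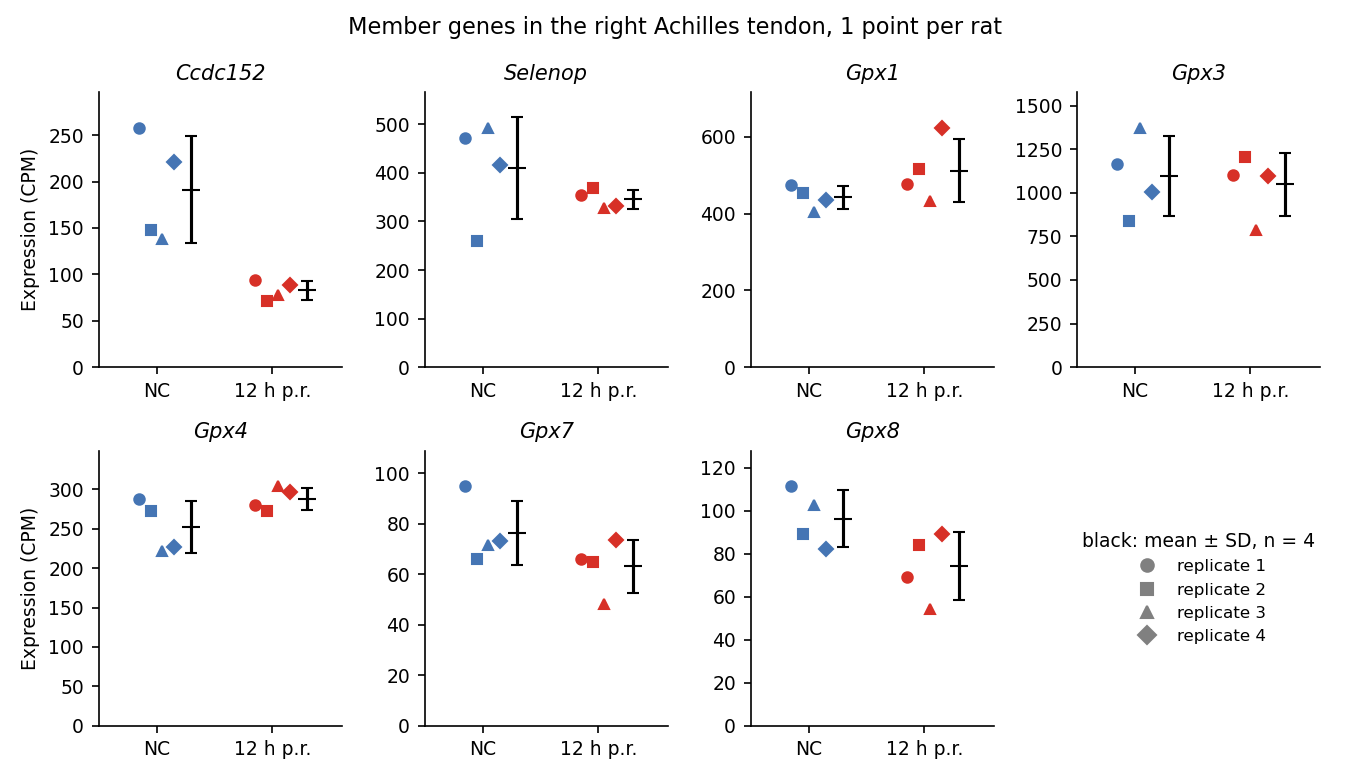
Expression of the 7 genes in CPM (vertical axes start at 0) for NC rats (blue) and 12 h p.r. rats (red), with 1 point per rat, marker shapes for the replicate numbers, and black bars for the mean ± SD of 4 rats. *Ccdc152* is the 1 gene whose groups do not overlap (70.9 to 93.6 against 138 to 258 CPM).

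Because both genes were counted in the same libraries, their ratio does not depend on library size. The 12 h p.r. rats had 26.5, 19.2, 23.9, and 26.7 *Ccdc152* reads per 100 *Selenop* reads, and the NC rats had 54.8, 56.9, 28.0, and 53.4. All running rats lay below all control rats, although NC replicate 3, the library high in cartilage and bone markers, was close to the highest running rat. The mean ratio was 24.1 ± 3.46 at 12 h p.r. and 48.3 ± 13.6 in NC (SD, n = 4 each). The ratio of NC replicate 3 was low through both genes, since it had the lowest *Ccdc152* and the highest *Selenop* level of the NC rats. How often such ratios separate for other gene pairs was not examined. This ratio comes from the contrast with which the genes were chosen and was not tested.

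**Figure D2:**
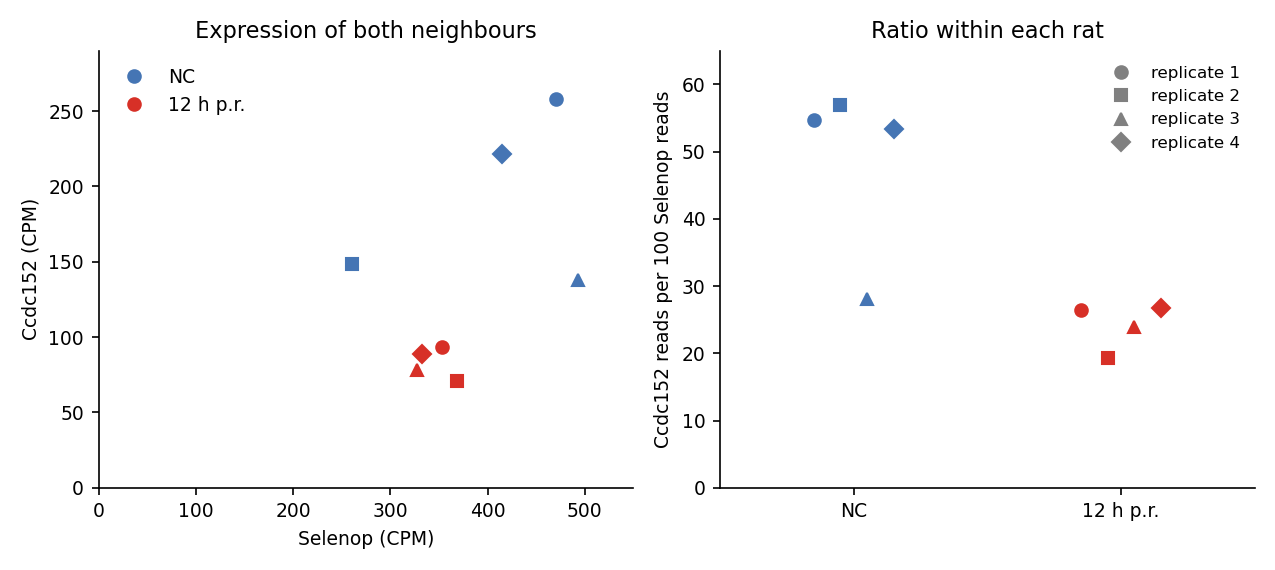
Left, expression of *Ccdc152* against that of *Selenop* (CPM, axes from 0), with 1 point per rat. Right, *Ccdc152* reads per 100 *Selenop* reads by group, where 3 NC rats sit between 53.4 and 56.9 and NC replicate 3, at 28.0, sits just above the running rats (19.2 to 26.7).

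The 3 selenocysteine-containing glutathione peroxidases showed small differences in both directions. *Gpx1*, the ubiquitous enzyme of the cytosol and mitochondria, measured 476, 517, 433, and 623 CPM in the 12 h p.r. rats and 474, 454, 403, and 436 CPM in the NC rats. 12 h p.r. replicates 1, 2, and 4 lay above all NC rats, replicate 3 lay within their range, and the log2 fold change was 0.21 (SE, 0.14). It was 0.24 (SE, 0.141) without the 2 libraries that stood apart and 0.10 (SE, 0.129) without 12 h p.r. replicate 4, the highest rat.

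*Gpx3*, the secreted enzyme found in plasma and extracellular space, had the most reads of the 7 genes. It measured 1102, 1205, 785, and 1099 CPM in the 12 h p.r. rats and 1168, 837, 1372, and 1004 CPM in the NC rats. The groups overlapped over most of their range, and the lowest rat of each was 12 h p.r. replicate 3 and NC replicate 2. The log2 fold change was -0.06 (SE, 0.20), and its sign turned without the 2 libraries that stood apart (0.18; SE, 0.161).

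*Gpx4*, which reduces lipid hydroperoxides in membranes and protects cells from ferroptosis, had the lowest coefficient of variation of the 7 genes among the running rats (4.94%). Its values were 280, 273, 304, and 296 CPM in the 12 h p.r. rats and 288, 272, 222, and 227 CPM in the NC rats. NC replicates 1 and 2 lay level with the running rats, and NC replicates 3 and 4 lay lower. The log2 fold change was 0.19 (SE, 0.12), and it was 0.11 (SE, 0.129) without the 2 libraries that stood apart.

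Both peroxidases of the endoplasmic reticulum had lower means in the running rats, with overlapping groups. *Gpx7* measured 65.9, 64.8, 48.2, and 73.4 CPM in the 12 h p.r. rats and 94.7, 65.9, 71.6, and 73.2 CPM in the NC rats. *Gpx8* measured 69.1, 83.9, 54.3, and 89.4 CPM in the 12 h p.r. rats and 111, 89.0, 103, and 82.0 CPM in the NC rats. For each gene, 2 running rats fell below the lowest control rat, and 12 h p.r. replicate 3, with the high muscle markers, was the lowest of all 8. The log2 fold change was -0.28 (SE, 0.15) for *Gpx7* and -0.38 (SE, 0.17) for *Gpx8*. Without the 2 libraries that stood apart, these values were -0.20 (SE, 0.147) and -0.22 (SE, 0.152). *Gpx7* was at -0.15 (SE, 0.143) without NC replicate 1 and at -0.17 (SE, 0.133) without 12 h p.r. replicate 3, and *Gpx8* was at -0.25 (SE, 0.137) without 12 h p.r. replicate 3.

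Across the 7 genes, 5 had a log2 fold change below 0 and 2 above 0, with a median of -0.25, whereas the median of all 13937 genes tested was 0.02, with 54.2% of them above 0. In the quasi-likelihood test of edgeR, 0 of the 7 had an adjusted p-value under 0.05, as against 0.00718% of all genes tested (1 gene). At an unadjusted p-value under 0.05 the count was 1 of 7 (*Ccdc152*), beside 9.51% of all genes. With the Wald test of DESeq2, *Ccdc152* alone of the 7 had an adjusted p-value under 0.05, beside 0.694% of all genes. Running rats below all control rats were found for 1 of the 7 (*Ccdc152*) and for 2.55% of all genes. The opposite order was found for 0 of the 7 and for 3.52% of all genes. Since the genes were chosen with this contrast known, these counts carry no evidence about it.

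Levels of different genes were compared on FPKM, which divides the counts by gene length and by the scaled library size. Over all 8 rats, the mean FPKM was 726 for *Gpx3*, 617 for *Selenop*, 543 for *Gpx1*, 153 for *Gpx4*, 132 for *Ccdc152*, 79.9 for *Gpx8*, and 59.6 for *Gpx7*. All 7 were abundant RNAs of the tendon: 0.94% of the genes tested had a higher FPKM than *Gpx3*, 1.09% than *Selenop*, 1.24% than *Gpx1*, and 9.45% than *Gpx7*. The length by which the deposited FPKM divides was 609 bases for *Selenop*, the shortest of the 7 and less than the coding sequence of full-length selenoprotein P, and 1762 bases for *Gpx4*, the longest, and levels depend on this choice.

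Neighbors in this order were compared within each rat as differences in log2(FPKM + 0.01), with an exact two-sided sign-flip permutation test over the 8 rats and Benjamini-Hochberg adjustment over the 6 pairs. Unadjusted, the test cannot give a p below 0.0078125. The order was itself taken from these 8 rats, so the pairs and their directions came from the data tested. *Gpx1* exceeded *Gpx4* by 1.83 ± 0.172 (SD, n = 8; adjusted exact p = 0.0234), and *Gpx8* exceeded *Gpx7* by 0.41 ± 0.153 (adjusted exact p = 0.0234), each in 8 of 8 rats. *Gpx3* exceeded *Selenop* by 0.24 ± 0.204 in 7 of 8 rats (adjusted exact p = 0.0352). When any rat other than 12 h p.r. replicate 3 was left out, this pair missed the threshold, with differences of 0.21 to 0.27. *Selenop* and *Gpx1* did not differ beyond the spread between rats (0.17 ± 0.404, 6 of 8 rats, adjusted exact p = 0.297).

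The place of *Ccdc152* in the order depended on the group, so its mean over all rats describes neither. Its FPKM was 79.3 ± 9.59 at 12 h p.r. and 184 ± 55.9 in NC (SD, n = 4 each). It lay below *Gpx4* in all 4 running rats and above it in 3 of 4 control rats, and the pair did not differ over the 8 rats (0.36 ± 0.786, adjusted exact p = 0.281). *Ccdc152* exceeded *Gpx8* by 0.60 ± 0.564 in 7 of 8 rats (adjusted exact p = 0.0352), which passed the threshold among the fits without 1 rat only when 12 h p.r. replicate 2 was left out. Both comparisons of *Ccdc152* pooled the groups, between which its level differed.

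**Figure D3:**
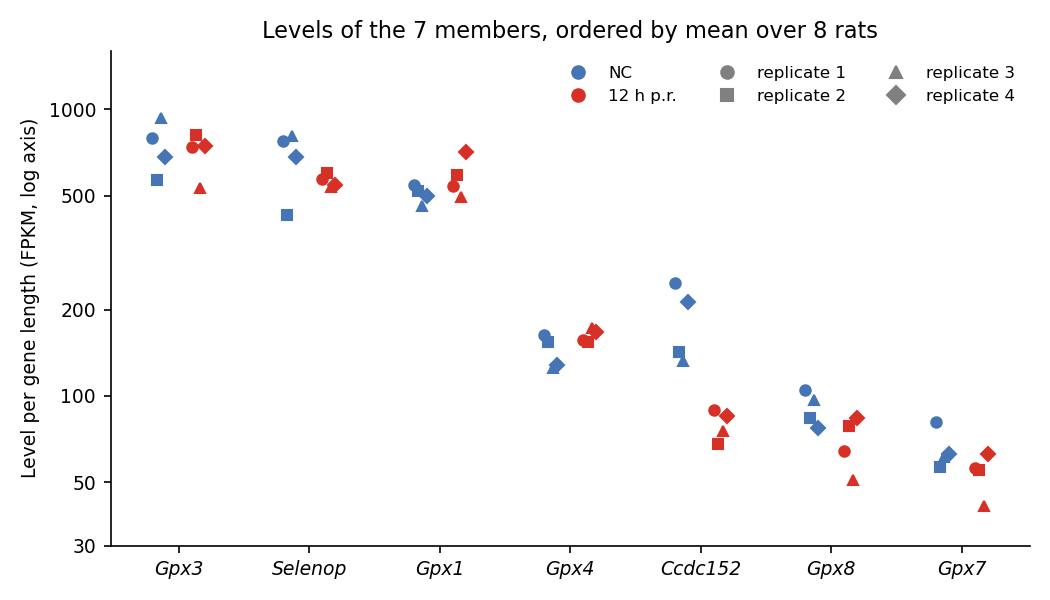
Levels per gene length (FPKM, log axis) of the 7 genes in each rat, ordered by the mean over 8 rats, for NC (blue) and 12 h p.r. (red). At the gene lengths used, *Gpx3*, *Selenop*, and *Gpx1* lie above the other 4 genes in every rat, and *Ccdc152* is the gene whose groups separate.

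The 5 glutathione peroxidases together amounted to 1576 ± 210 FPKM at 12 h p.r. and 1547 ± 156 FPKM in NC (SD, n = 4 each), a difference smaller than either SD. Over all rats, *Gpx3* made up 46.3%, *Gpx1* 34.9%, *Gpx4* 9.89%, *Gpx8* 5.10%, and *Gpx7* 3.81% of this total. The share of *Gpx8* was 3.94 to 4.73% in the running rats and 5.32 to 6.21% in the control rats. *Gpx7* took 3.19 to 3.59% in the running rats and 3.66 to 4.82% in the control rats. The shares of both enzymes of the endoplasmic reticulum therefore did not overlap between the groups, narrowly so for *Gpx7*, although their CPM values did. The shares of *Gpx1*, *Gpx3*, and *Gpx4* overlapped. Shares of 1 total depend on each other, so those of *Gpx7* and *Gpx8* also move with *Gpx1* and *Gpx3*. How often such shares separate for other genes was not examined. These shares come from the contrast with which the genes were chosen and were not tested.

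Among the selenoproteins, *Gpx3*, *Selenop*, and *Gpx1* held the first 3 ranks in mean FPKM, followed by *Selenom* (277), *Selenof* (236), and *Selenok* (168). *Gpx4* ranked 7. The rank of *Selenop* and the shares below rest on its length of 609 bases, less than its full coding sequence. A longer length would lower its FPKM and its share. Selenoprotein FPKM summed over 23 genes was 3234 ± 291 at 12 h p.r. and 3266 ± 345 in NC (SD, n = 4 each). *Selenop*, *Gpx1*, *Gpx3*, and *Gpx4* made up 62.3 ± 1.36% of it at 12 h p.r. and 62.9 ± 3.0% in NC. The selenoprotein total thus differed by less than the spread between rats. Within it, the mean *Selenop* share was lower at 12 h p.r. (17.5 ± 1.21 against 20.3 ± 3.43%) and the mean *Gpx1* share higher (18.0 ± 1.97 against 15.6 ± 2.24%). Both shares overlapped between the groups, and NC replicate 2 had 15.3% for *Selenop* and 18.6% for *Gpx1*. Such shares depend on each other and were not tested.

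Genes of the same pathways that are not among the 7 were taken from 5 lists, which were also written with earlier results of these data known. Of the 50 genes listed, 41 were tested, and edgeR's quasi-likelihood test called 0 of them at an adjusted p-value under 0.05, as did DESeq2. Their median log2 fold change was 0.02, equal after rounding to that of all genes, with 24 above 0 and 17 below. At an unadjusted p-value under 0.05 there were 4 of 41 (9.76%, beside 9.51% of all genes): 2 higher and 2 lower.

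Of the other selenoproteins, 15 of 19 were tested, 0 were called, and the median was 0.04 (range, -0.28 to 0.38). *Selenon*, an endoplasmic reticulum protein of muscle and connective tissue, had the highest value, with 64.4 ± 6.68 CPM at 12 h p.r. and 49.4 ± 8.55 CPM in NC (log2 fold change, 0.38; SE, 0.14; edgeR adjusted p = 0.461), and 3 of 4 running rats were above all control rats. The abundant *Selenom* and *Selenof*, both of the endoplasmic reticulum, had log2 fold changes of 0.04 (SE, 0.14) and -0.10 (SE, 0.13), and *Selenok* had 0.11 (SE, 0.11). *Selenow*, a small selenoprotein abundant in muscle, ran from 2.24 CPM in NC replicate 1 to 61.9 CPM in 12 h p.r. replicate 2, so its log2 fold change of 0.08 had an SE of 1.00. That range was present in both groups, since NC replicate 4 had 52.4 CPM and 12 h p.r. replicate 4 had 2.91 CPM. In 12 h p.r. replicate 3, the library high in muscle markers, *Selenow* was at 7.26 CPM. The rats highest in *Selenow*, 12 h p.r. replicate 2 and NC replicate 4, were the lowest of their groups in muscle markers (1656 and 1277 CPM). The cause of the range was not tested. *Dio1*, *Dio3*, and *Selenov* were too low to test, and *Dio2* was not analysed here.

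Of the genes for selenium uptake and selenocysteine synthesis, 10 of 11 were tested and 0 were called (median, 0.00 after rounding; range, -0.24 to 0.27). *Sepsecs*, the enzyme of the last step of selenocysteine synthesis on its transfer RNA, was 23.6 ± 2.20 CPM at 12 h p.r. and 28.0 ± 1.31 CPM in NC (log2 fold change, -0.24; SE, 0.10; edgeR adjusted p = 0.488). Its groups did not overlap, but 12 h p.r. replicate 1 (26.5 CPM) came close to NC replicate 3 (26.7 CPM). Of the receptors that take up selenoprotein P, *Lrp2* was too low to test. *Lrp8* was low, at 2.46, 6.32, 2.38, and 3.57 CPM in the 12 h p.r. rats and 3.69, 4.05, 4.23, and 4.25 CPM in the NC rats (log2 fold change, -0.14; SE, 0.32; edgeR adjusted p = 0.914). Its running rats lay on both sides of the control rats, with 3 below and 1 above all of them, and without the 2 libraries that stood apart the log2 fold change was 0.04 (SE, 0.354). *Lrp1*, a related receptor, was 807 ± 171 CPM at 12 h p.r. and 670 ± 37.3 CPM in NC (log2 fold change, 0.27; SE, 0.17; edgeR adjusted p = 0.659). The running rats split, with 551 CPM in 12 h p.r. replicate 3 and 875 to 910 CPM in the other 3. Without the 2 libraries that stood apart, the log2 fold change of *Lrp1* was 0.45 (SE, 0.118), which edgeR did not call (adjusted p = 0.368) and DESeq2 called (adjusted p = 0.00401). *Lrp1* and *Lrp8* were named after their values were seen.

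Of the genes of glutathione synthesis and reduction, 9 of 10 were tested and 0 were called (median, -0.05; range, -0.23 to 0.23). Of the 7 other peroxide-removing enzymes, all were tested and 0 were called (median, 0.01; range, -0.21 to 0.32). *Prdx2*, a peroxiredoxin of the cytosol, was 156 ± 3.89 CPM at 12 h p.r. and 135 ± 8.06 CPM in NC, higher in 4 of 4 running rats than in any control rat (log2 fold change, 0.21; SE, 0.08; edgeR adjusted p = 0.489). *Prdx1* and *Prdx4*, with 287 and 213 FPKM, were the most abundant of this list. The other glutathione peroxidases were hardly detected: *Gpx2* had 14 reads over the 8 rats and *Gpx5* and *Gpx6* had 0, so none was tested.

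**Figure D4:**
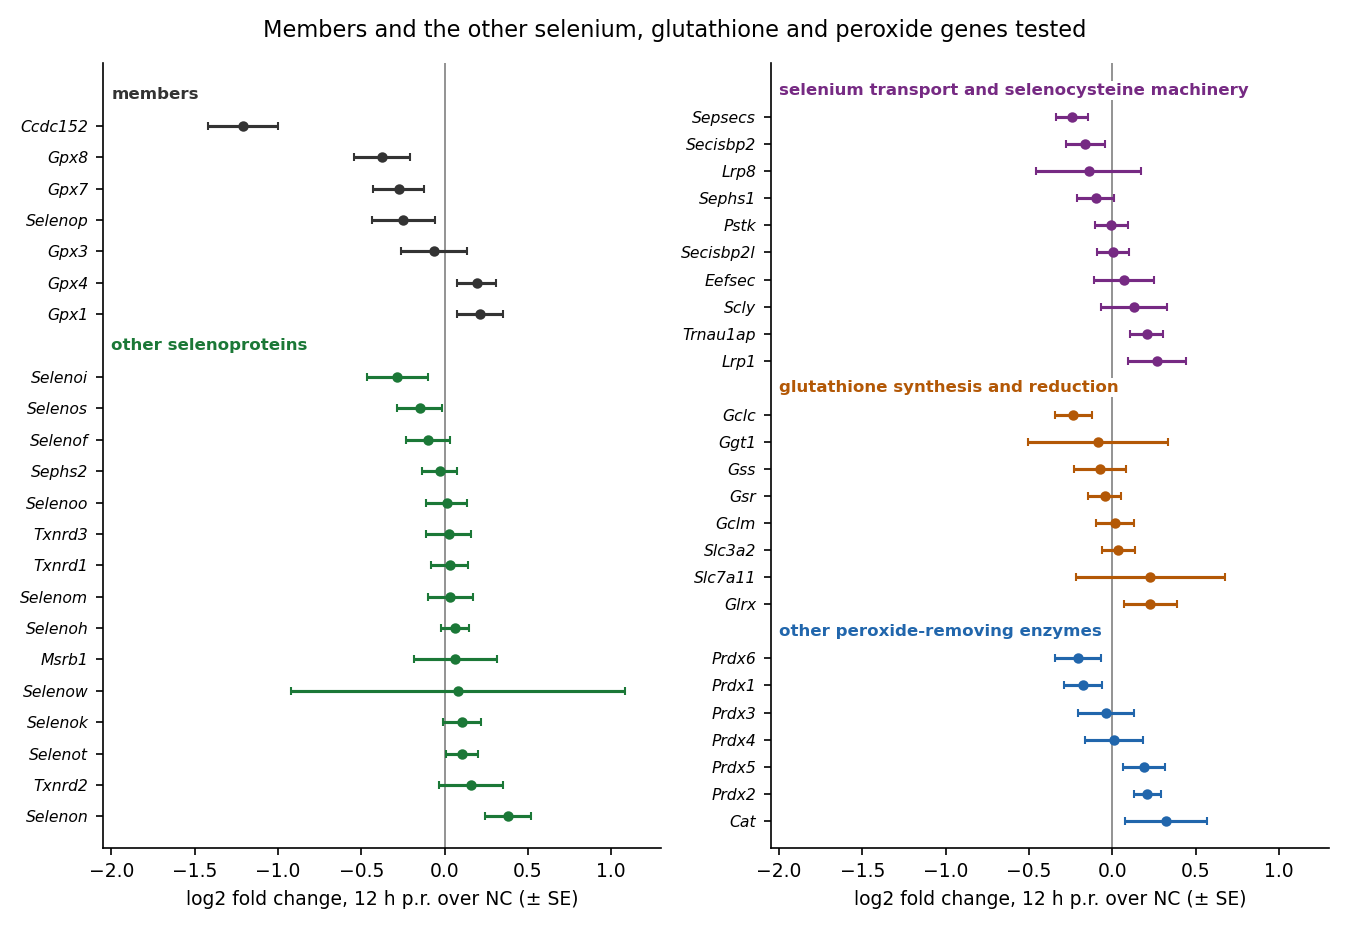
Log2 fold change of 12 h p.r. over NC (horizontal axis, bars are ± SE, n = 4 rats each) for the 7 genes and 40 of the 41 tested genes of the pathway lists. *Ccdc152*, at -1.21, lies apart from the other genes, which run from -0.38 to 0.38.

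In GRCr8 the next gene beyond *Ccdc152* that is also in the count table is *Ghr*, the growth hormone receptor. It was 327 ± 128 CPM at 12 h p.r. and 332 ± 67.2 CPM in NC (log2 fold change, -0.02; SE, 0.28; edgeR adjusted p = 0.988). LOC103691472, a long noncoding RNA gene that overlaps *Ccdc152*, and LOC102548571 and LOC134485598, on the far side of *Selenop*, were not analysed here.

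*Ccdc152* and *Selenop* did not run closely together over the rats. Over the 8 rats, the Pearson r of their log2(CPM + 0.5) was 0.45, and it was 0.30 after the mean of each group was removed. Among the 5 genes most like *Ccdc152* were *Diaph1*, an actin-nucleating formin (r = 0.987), *Heph*, an iron oxidase (r = 0.980), *Nxpe1* (r = 0.963), and *Lrrc61* (r = 0.962). Within groups these values were 0.933, 0.899, 0.826, and 0.866. All 4 had lower means at 12 h p.r., with log2 fold changes of -0.30, -0.42, -0.72, and -0.46, none called by edgeR (adjusted p from 0.385 to 0.429). They share with *Ccdc152* the rats, the scaling, and the difference between the groups, which was large for *Ccdc152*, and they are among the highest of 13937 genes.

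*Selenop* was most like a different set of genes, *Gpr137b* (r = 0.976), *Ddx18* (r = 0.973), *Gsn*, the actin-severing gelsolin (r = 0.959), *Gda*, guanine deaminase (r = 0.954), and *Ifitm1* (r = 0.949). Among the other 6 members, *Selenop* was most like *Gpx3* (r = 0.75, and 0.76 within groups). For *Ccdc152*, the closest of the 6 was *Gpx7* (r = 0.72, and 0.60 within groups).

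Marker genes of other cell types moved with some of these values. Only a skeletal muscle score was entered in a fit as a covariate. With it, the log2 fold change was -1.15 for *Ccdc152*, -0.23 for *Selenop*, 0.23 for *Gpx1*, and -0.05 for *Gpx3*. It was 0.18 for *Gpx4*, -0.25 for *Gpx7*, and -0.37 for *Gpx8*. The part of the other markers in these values was not tested. In bulk tissue, fewer cells of a type and less RNA per cell cannot be told apart. Leukocyte markers (5 of 5 genes present) summed to 193, 297, 108, and 201 CPM in the 12 h p.r. rats and 334, 128, 314, and 309 CPM in the NC rats. The lowest rat of each group for leukocyte markers, 12 h p.r. replicate 3 and NC replicate 2, was also its lowest for *Selenop* and *Gpx3*. The match was not particular to leukocytes, since both were also the lowest of their groups in fibroblast markers (374 and 419 CPM). In addition, 12 h p.r. replicate 3 was the library high in muscle markers. Among the running rats, *Selenop* ran only from 328 to 368 CPM. The T cell marker *Cd3e* was at 0 to 0.561 CPM throughout.

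Red blood cell markers (2 of 3 genes present, nearly all *Hbb*) summed to 190, 805, 371, and 207 CPM in the 12 h p.r. rats and 1078, 241, 250, and 1042 CPM in the NC rats. NC replicates 1 and 4, the highest in these markers, were also the highest in *Ccdc152*. Of the running rats, replicate 2 was the highest in these markers and the lowest in *Ccdc152*.

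Markers of loose connective tissue fibroblasts (4 of 4 genes) summed to 374 to 531 CPM at 12 h p.r. and 419 to 559 CPM in NC, adipocyte markers (4 of 4) to 1098 to 2969 and 1869 to 3359 CPM, and endothelial markers (4 of 5) to 794 to 1003 and 790 to 893 CPM. The liver markers (3 of 3) summed to 1.03 to 16.4 CPM at 12 h p.r. and 1.70 to 9.06 CPM in NC. *Alb* reached 15.9 CPM in 12 h p.r. replicate 3 and 8.02 CPM in NC replicate 1, and *Ttr* was at 0 in 7 of 8 rats. EdgeR called 0 genes of the 9 marker lists at an adjusted p-value under 0.05. At an unadjusted p-value under 0.05 there were 6 of the 35 markers tested (17.1%, beside 9.51% of all genes). The tenocyte markers *Scx*, *Mkx*, and *Thbs4* and the endothelial marker *Tie1* had log2 fold changes above 0 (0.62, 0.78, 0.56, and 0.31). The fibroblast marker *Pi16* and the endothelial marker *Emcn* had values below 0 (-0.58 and -0.40). The edgeR adjusted p of these 6 ran from 0.446 to 0.506. The other tenocyte markers, *Tnmd*, *Col1a1*, and *Fmod*, were not among these 6, and their groups overlapped. *Tnmd* was 250 to 358 CPM at 12 h p.r. and 224 to 392 CPM in NC. *Col1a1* was 11092 to 37602 and 19647 to 30606 CPM, and *Fmod* 1194 to 3673 and 2421 to 3756 CPM.

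**Figure D5:**
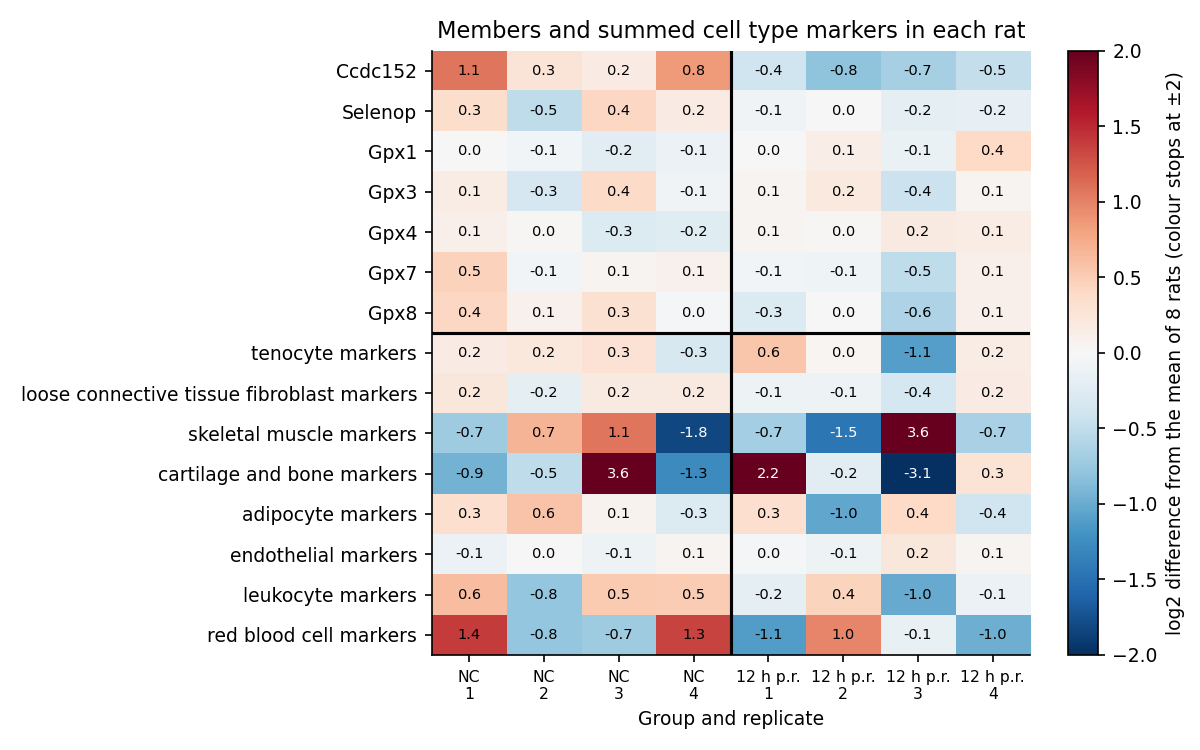
Log2 difference of each rat from the mean of the 8 rats for the 7 genes (CPM, top) and for summed markers of 8 cell types (bottom), with red for higher, blue for lower, and colors that stop at ±2. 12 h p.r. replicate 3 is high in muscle markers and low in tenocyte markers, and NC replicate 3 is high in cartilage and bone markers.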

How the data were processed

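Reads were mapped by the authors to Rnor_6.0 (HISAT2 2.1.0, strand-specific setting), and the deposited values are raw counts of Ensembl genes from featureCounts 1.6.3, 1 column per rat. How multimapping reads were treated is not given in the sources used here. The deposited FPKM values are the counts divided by gene length and by a factor per rat that matched DESeq2 size factors. The gene length recovered from them was whole within 0.01 bases for all 21046 genes with reads. A deposited table of fold changes and p-values, which the authors obtained from DESeq2 1.30.1, was not used.

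Counts were filtered with filterByExpr, scaled with TMM factors, and compared with the quasi-likelihood test of edgeR 4.0.16, and p-values were adjusted by Benjamini-Hochberg over the 13937 genes kept. CPM uses the TMM-scaled library size. A gene was called at an adjusted p-value under 0.05. Alternatives were DESeq2 1.42.0, limma 3.58.1 on log2(FPKM + 1) and log2(FPKM + 0.1), other scalings and filters, a skeletal muscle score, a replicate block, and omission of rats. R 4.3.3 and Python 3.11.15 were used, and the fit was tested on simulated data. Rats of a group differed by more than sampling noise (chi-square per degree of freedom, 16.1 to 129).

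The members and gene lists were chosen with earlier results of these data known. Named are all members, list genes with an unadjusted p-value under 0.05, the 5 list genes with the highest FPKM, the 5 genes most like *Ccdc152* and *Selenop*, and their neighbors. Of these, 1 list gene and 1 gene most like *Ccdc152* are not reported here, nor was that list gene searched for rats that stand apart. Other genes were named after their values were seen. Promoter windows were found for 6 of the 7 members.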

Additional observations from a re-analysis of the deposited data

Results flagged for a closer look

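Within each group of 4 rats, the highest or lowest rat was compared with the other 3 by Dixon's 95% criterion for the gap over the range. Of 116 groups searched, 10 had such a rat, and chance gives about 5.8. None concerned a single member gene. *Ccdc152* reads per 100 *Selenop* reads were 28.0 in NC replicate 3 and 53.4 to 56.9 in the other NC rats.

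Several came from 12 h p.r. replicate 3. Its skeletal muscle markers summed to 53900 CPM (others, 1660 to 2870) and its liver markers, almost all *Alb*, to 16.4 CPM (others, 1.03 to 2.85). On the log2(CPM + 0.5) scale it had *Lrp1* at 9.11 (others, 9.77 to 9.83) and *Prdx3*, the mitochondrial peroxiredoxin, at 6.70 (others, 5.95 to 6.05).

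NC replicate 3 had cartilage and bone markers of 1220 CPM (others, 42.9 to 72.6). NC replicate 2 had leukocyte markers of 128 CPM (others, 309 to 334), fibroblast markers of 419 CPM (others, 540 to 559), and *Secisbp2l* at 6.99 (others, 6.89 to 6.90; log2 scale). *Selenoi* was at 4.42 in 12 h p.r. replicate 2 (others, 3.71 to 3.8; log2 scale).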

How the results depend on the processing

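*Ccdc152* kept its direction in all 19 alternatives, from -1.34 without NC replicate 3 to -1.03 without NC replicate 1 on the log2 scale. *Selenop* ran from -0.41 without NC replicate 2 to -0.12 without both libraries that stood apart in markers. *Gpx3* changed sign in 4 of 19 alternatives (-0.17 to 0.18), and *Gpx1*, *Gpx4*, *Gpx7*, and *Gpx8* kept theirs. Rats with equal replicate numbers did not deviate together (correlation of deviations, -0.20 to 0.13, against -0.31 to 0.34 between unequal numbers). With so few rats, this check cannot exclude a pairing. With a replicate block, *Ccdc152* was -1.17 and *Selenop* -0.21, and edgeR called 0 genes at an adjusted and 974 at an unadjusted p-value under 0.05.

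Of the list genes, edgeR called 0 in either direction, also without any 1 rat, and an unadjusted p-value gave 2 higher and 2 lower. DESeq2 without both libraries, an alternative chosen after seeing the data, called 1 higher (*Lrp1*; log2 fold change, 0.44; DESeq2 adjusted p = 0.00401; 0.354 to 0.880 under all other settings). Over all genes, edgeR called 1 and DESeq2 96, with *Ccdc152* among those of DESeq2. That call carries no evidence, since *Ccdc152* was chosen with this contrast known. Without 1 rat, *Gpx3* over *Selenop* ran from 0.21 to 0.28 and missed the threshold in 7 of 8 fits, and *Ccdc152* over *Gpx8* ran from 0.47 to 0.71 and missed it in 7 of 8. An exact test over 7 rats cannot reach p-values as small as over 8. With 4 rats a group and 1 library each, small differences such as those of the glutathione peroxidases cannot be resolved from the spread between rats.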
